A study of Mus musculus with 16 samples.

Results

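The genes described here move calcium through the contraction cycle of a skeletal muscle fibre. They are 10 genes taken by symbol: *Ryr1*, *Cacna1s*, *Trdn*, *Jph1*, *Atp2a1*, *Atp2a2*, *Sln*, *Casq1*, *Casq2* and *Pvalb*. All 10 were present among the 26382 genes of a table of normalized counts from mouse hamstring muscle. All 10 passed the filter on low values, a mean of at least 0.5 normalized counts over 16 libraries, which 16414 genes passed. None passed through 1 high group alone, since the lowest group mean of any of them was 2.61 normalized counts, for *Sln* in PBS-only mice.

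The mice were female C57BL/6, 8 to 10 weeks old when injected in the hamstring, and muscle was taken on day 14 for bulk poly(A) RNA sequencing. In mice m862 to m866, the titles of the samples assign the left leg to recombinant histidyl-tRNA synthetase (HRS, 3 to 5 mg/mL, the enzyme that loads histidine onto its tRNA and the target of anti-Jo-1 autoantibodies) and the right leg to PBS, which gave 5 HRS legs and 5 contralateral PBS legs. Mice m867 and m868 had PBS in both legs, which gave 4 PBS-only legs from 2 mice. A further 2 libraries, from mice m860 and m861, came from mice immunized with a maltose-binding protein (MBP) fusion at 2 to 3 mg/mL according to their titles, although their treatment label reads HRS; they are called HRS-MBP here, and their leg is not stated. The treatment text describes injection of both hamstrings, whereas the titles place HRS in 1 leg, and the grouping used here is that of the titles, the only label in which the legs differ. The contralateral legs belonged to immunized mice, so PBS-only legs were the only ones from mice that received no HRS. PBS-only legs of 1 mouse are not independent animals, and p-values that treat them as 4 libraries measure the spread between legs as well as between mice.

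An action potential in a muscle fibre is sensed in the transverse tubule by the voltage sensor, whose pore subunit is encoded by *Cacna1s*. The sensor opens the ryanodine receptor (*Ryr1*) in the facing membrane of the sarcoplasmic reticulum, and the junction is held in shape by junctophilin (*Jph1*) and by triadin (*Trdn*), which links the receptor to calsequestrin inside the store. Calsequestrin binds the stored calcium (*Casq1* is the fast-fibre form, and *Casq2* is the form of heart, slow fibres and developing muscle). After release, calcium is bound in the cytosol of fast fibres by parvalbumin (*Pvalb*) and pumped back by SERCA (*Atp2a1* in fast fibres, *Atp2a2* in slow fibres and heart), and sarcolipin (*Sln*) is a small membrane protein that inhibits the pump. Hamstring muscle of the mouse consists mostly of fast fibres.

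The depth implied by the smallest step between values was 8.60 to 73.9 M reads per library, with the PBS-only right leg of m868 the shallowest. The HRS leg of m866 stood apart from the other HRS legs. The median of 15 muscle reference genes (structural and metabolic genes of all fibres, such as *Acta1*, *Ckm*, *Ttn* and *Neb*), taken relative to its mean over all libraries, was 0.41 higher there on the log2 scale, against 0.46 to 1.45 lower in the other 4 HRS legs. The summed level of 10 leukocyte marker genes in that leg was 1033 normalized counts, above the range of 88.2 to 255 in contralateral legs. The sum of 8 markers of regenerating fibres and satellite cells was 80.8 there, below the contralateral range of 91.6 to 254. Counts of the 10 genes in the comparisons that use this mouse are therefore also given without it. The fibre identity of the libraries was as labelled: *Acta1*, the skeletal muscle actin, lay between 10672 and 42839 normalized counts in all 16 libraries.

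Marker genes of other cells moved with the groups. Between HRS legs and contralateral PBS legs, 10 of 10 leukocyte markers were called higher, with sums of 1033 to 5205 in HRS legs. Of 6 fibroblast markers, 4 were called higher. Of 15 muscle reference genes, 11 were called lower (median -1.12, log2 scale), and of 4 adipocyte markers 3 were called lower (median -1.83). The share of counts from mitochondrial genes was 3.41% to 6.29% in the HRS legs of m862 to m865, 11.1% in that of m866 and 9.69% to 13.1% in the 9 PBS legs. The part of these in the changes of the 10 genes was not tested. Called means an adjusted p below 0.05 (Benjamini-Hochberg over 16414 genes, limma on log2 of the normalized count plus 0.5) with an absolute log2 fold change above 1. In bulk muscle, fewer fibres in the sample and less RNA of a gene in each fibre cannot be told apart, and this holds for every fall described below.

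In the 9 legs that received PBS, the members spanned over 3 orders of magnitude per length. Per kilobase of exon in GENCODE M21, *Atp2a1* had the highest level, with a mean of 12193 ± 1797 normalized counts per kilobase (SD, n = 9). *Pvalb* followed with 8332 ± 1414, and the ranges of the pair overlapped. *Casq1* stood alone at 1919 ± 244, between 1436 and 2251 in every PBS library. *Cacna1s* (216 ± 37.9), *Ryr1* (165 ± 29.8) and *Trdn* (156 ± 24.9) formed a group whose ranges overlapped, and *Jph1* (81.8 ± 12.1) overlapped with *Atp2a2* (64.0 ± 35.9). *Casq2* had 18.7 ± 6.40 and *Sln* 4.82 ± 6.03 normalized counts per kilobase, so the fast-fibre forms of the pump and of calsequestrin exceeded their slow or cardiac forms by far. The order is a description of levels and depends on the exons counted.

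Of the 10 genes, 7 were called between HRS legs and contralateral legs. *Sln* and *Casq2* were higher in HRS legs, and *Ryr1*, *Cacna1s*, *Trdn*, *Jph1* and *Pvalb* were lower. Over all genes tested, 16.9% were called higher and 6.27% lower in this comparison, and the median over all genes was 0.08 on the log2 scale, against -1.08 over the members. The genes not called were *Atp2a1*, *Atp2a2* and *Casq1*. Without both legs of m866, 8 were called (2 higher and 6 lower), the added gene being *Atp2a1*. The share of all genes called rose with it, from 23.2% to 31.8%. By limma-voom, which rescales each library to its total, *Sln* and *Casq2* alone were called, and the falls were smaller (*Ryr1*, -0.90, adjusted p = 0.00428) and under the fold threshold. Of all genes, 27.8% were called in that fit.

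**Figure D1:**
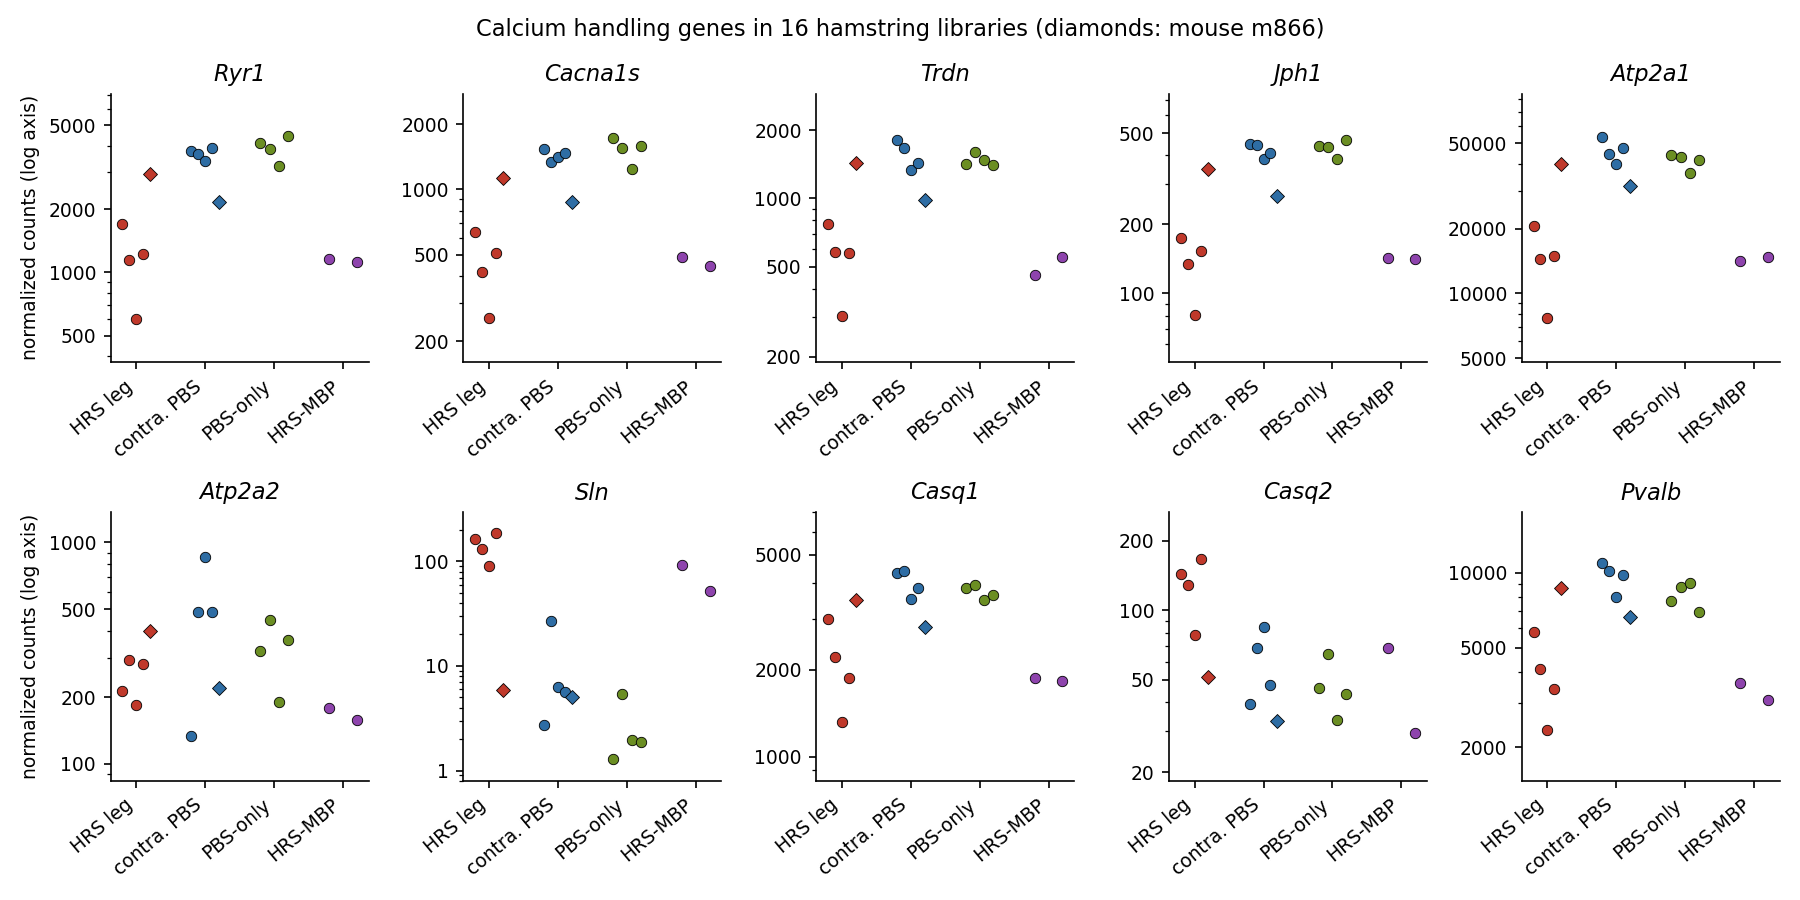
Normalized counts (log axis) of each gene in the 16 libraries, 1 point per library, grouped as HRS legs, contralateral (contra.) PBS legs, PBS-only legs and HRS-MBP; diamonds mark the legs of m866. The HRS leg of m866 has 5.92 normalized counts of *Sln*, among the PBS legs, whereas the other 4 HRS legs have 90.1 to 186.

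The genes of the release unit fell together in 4 of the 5 mice. *Ryr1* encodes the release channel (protein coding, minus strand, chr7:29003344-29125179, GRCm38) and had 1695, 1148, 599, 1226 and 2950 normalized counts in the HRS legs of m862, m863, m864, m865 and m866. Its contralateral values in the same order were 3763, 3642, 3376, 3910 and 2164. The first 4 HRS legs lay below every contralateral leg, and the m866 HRS leg lay within the contralateral range, because the contralateral leg of m866 was the lowest of its group. *Ryr1* had a log2 fold change of -1.31 ± 0.33 (SE, limma adjusted p = 0.00393), which is 0.404 of the contralateral level on the log2(count + 0.5) scale.

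*Cacna1s* encodes the pore of the voltage sensor (protein coding, plus strand, chr1:136052750-136119822, GRCm38). Its HRS legs had 635, 416, 256, 513 and 1132 normalized counts, and the contralateral legs had 1540, 1341, 1404, 1468 and 877, in the order m862 to m866. The pattern matched that of *Ryr1*, with m866 as the exception in both legs. *Cacna1s* had a log2 fold change of -1.31 ± 0.30 (SE, limma adjusted p = 0.00202).

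*Trdn*, the anchor between the release channel and calsequestrin (protein coding, plus strand, chr10:33080554-33476709, GRCm38), had 775, 580, 303, 577 and 1430 normalized counts in HRS legs and 1816, 1676, 1341, 1430 and 988 in contralateral legs. *Jph1*, which ties the tubule to the store (protein coding, minus strand, chr1:16964560-17097889, GRCm38), had 175, 135, 80.1, 153 and 348 in HRS legs and 448, 443, 388, 410 and 265 in contralateral legs. For both genes, the HRS legs of m862 to m865 lay below all 5 contralateral legs. *Trdn* changed by -1.13 ± 0.30 on the log2 scale (SE, limma adjusted p = 0.00522) and *Jph1* by -1.27 ± 0.28 (SE, limma adjusted p = 0.00152). Without both legs of m866, the log2 fold changes of the 4 release genes ran from -1.75 for *Ryr1* to -1.55 for *Trdn*. Without the HRS leg of m864, *Trdn* was at -0.86 and not called.

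The uptake genes did not move as a group. *Atp2a1* encodes the fast-fibre calcium pump (protein coding, minus strand, chr7:126445858-126463108, GRCm38). Its HRS legs had 20484, 14492, 7658, 14977 and 39959 normalized counts, and its contralateral legs had 53144, 44418, 40112, 47476 and 31491. Again the first 4 HRS legs lay below every contralateral leg. The log2 fold change of -1.34 ± 0.60 was the most negative of the 10 genes, but the limma adjusted p of 0.0654 missed the threshold. With genes filtered at a mean of 5 it was 0.00682, and *Atp2a1* was called. Without the HRS leg of m866, *Atp2a1* was called at -1.65 (limma adjusted p = 0.00301).

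*Atp2a2*, the slow-fibre and cardiac pump (protein coding, minus strand, chr5:122453513-122502225, GRCm38), had 213, 295, 184, 283 and 399 normalized counts in HRS legs. Its contralateral legs had 134, 487, 858, 483 and 220, a wider spread that contained all 5 HRS values. Its log2 fold change was -0.44 with a 95% interval from -1.29 to 0.42 (limma adjusted p = 0.356). It was -0.79 without the contralateral leg of m862 and -0.12 without that of m864. A fall or a small rise of *Atp2a2* could thus not be separated from no change.

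*Sln*, the inhibitor of the pump (protein coding, plus strand, chr9:53850164-53854560, GRCm38), had 163, 131, 90.1, 186 and 5.92 normalized counts in the HRS legs of m862 to m866. The contralateral legs had 2.72, 26.9, 6.24, 5.68 and 5.09, and the 4 PBS-only legs had 1.28, 5.34, 1.94 and 1.89. The first 4 HRS legs were above all 9 PBS legs, and the HRS leg of m866 was not. Against contralateral legs, the log2 fold change was 3.36 ± 0.78 (SE, limma adjusted p = 0.0023), 10.2-fold on the log2(count + 0.5) scale. Without both legs of m866, it was 4.15 (limma adjusted p = 6.28e-06).

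Of the calsequestrin genes, *Casq2* was called higher and *Casq1* was not called. *Casq1*, the fast-fibre calsequestrin (protein coding, minus strand, chr1:172209894-172219868, GRCm38), had 2999, 2217, 1319, 1864 and 3488 normalized counts in HRS legs and 4309, 4392, 3504, 3821 and 2802 in contralateral legs. Its log2 fold change of -0.73 ± 0.26 had an adjusted p of 0.0254 in limma, but its size stayed under the fold threshold. *Casq2*, the cardiac and slow-fibre calsequestrin (protein coding, plus strand, chr3:102086415-102146514, GRCm38), had 144, 128, 78.3, 166 and 51.3 normalized counts in HRS legs and 39.3, 68.5, 84.3, 47.5 and 33.3 in contralateral legs. The HRS legs of m862, m863 and m865 were above every contralateral leg, while m864 and m866 were within the contralateral range. *Casq2* rose by 1.01 ± 0.34 on the log2 scale (SE, limma adjusted p = 0.0182), just past the fold threshold of 1. It fell under that threshold with a pseudocount of 2, where it was 0.99, and was not called in 9 of 24 alternatives. These include the fits without the HRS leg of m862, m863 or m865 and without the contralateral leg of m862, m865 or m866, with values from 0.84 to 0.98.

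The proximal promoters of both calsequestrin genes are shown because the ratio of these forms is described further on. They are the RefSeq sequences of GRCm38.p6 from 250 bases before to 50 bases after the start, written 5′ to 3′ on the strand of the gene, with each E-box (CANNTG, the letters bound by myogenic factors such as MyoD and myogenin) in capitals.
Casq1 (chr1:172219846-172220145, minus strand): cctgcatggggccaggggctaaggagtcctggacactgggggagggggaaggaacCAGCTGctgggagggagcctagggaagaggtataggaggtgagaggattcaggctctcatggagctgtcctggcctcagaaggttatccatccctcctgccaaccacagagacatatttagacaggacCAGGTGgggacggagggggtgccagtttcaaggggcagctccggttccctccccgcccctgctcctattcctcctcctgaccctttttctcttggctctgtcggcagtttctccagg
Casq2 (chr3:102086165-102086464, plus strand): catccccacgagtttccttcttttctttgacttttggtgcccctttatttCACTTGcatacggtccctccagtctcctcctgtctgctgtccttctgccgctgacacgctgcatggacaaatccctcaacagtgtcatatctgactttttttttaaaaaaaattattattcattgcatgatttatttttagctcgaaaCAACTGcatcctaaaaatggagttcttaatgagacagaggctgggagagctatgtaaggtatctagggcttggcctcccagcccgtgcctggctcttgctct
Each holds 2 E-boxes. That of *Casq1* at base 56 reads CAGCTG, and *Casq2* holds no CAGCTG in this window. CANNTG and CAGCTG read the same on both strands, and every CAGCTG is also a CANNTG. Of 32851 promoters of the same length, 72.3% held CANNTG and 16.3% held CAGCTG, so neither match is rare. Promoters were matched for 6 of the 10 genes: *Cacna1s*, *Casq1*, *Casq2*, *Ryr1*, *Atp2a1* and *Pvalb*, the last with 2 starts. CAGCTG also occurred in those of *Cacna1s* and *Atp2a1*, of which the first fell and the second had a negative fold change. The promoter of *Ryr1* held no CANNTG. *Sln*, *Trdn*, *Jph1* and *Atp2a2* had no entry. A match of letters is a description and not a binding site.

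*Pvalb*, the cytosolic calcium buffer of fast fibres (protein coding, minus strand, chr15:78191114-78206400, GRCm38), had 5791, 4103, 2350, 3435 and 8699 normalized counts in HRS legs. Its contralateral legs had 10926, 10184, 7950, 9817 and 6657. As for the release genes, the HRS legs of m862 to m865 lay below all contralateral legs. Its log2 fold change of -1.02 ± 0.35 (SE, limma adjusted p = 0.0207) was close to the fold threshold. Without both legs of m866, it was -1.38 (limma adjusted p = 0.000394). The call was lost in 11 of 24 alternatives and the direction turned in 1, centring on the muscle reference genes. Among the losses were the fits without the HRS leg of m863, m864 or m865 and without the contralateral leg of m862, m863 or m865, with values from -0.997 to -0.80.

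The same directions were seen against PBS-only mice. Of the 10 genes, 6 were called: *Sln* and *Casq2* higher, and *Ryr1*, *Cacna1s*, *Trdn* and *Jph1* lower. Over all genes tested, 18.9% were called higher and 5.87% lower. Both comparisons use the same HRS legs, so their values are not independent of each other. The log2 fold changes against PBS-only legs were 4.74 ± 0.83 for *Sln* (SE, limma adjusted p = 0.000311) and 1.18 ± 0.36 for *Casq2* (SE, limma adjusted p = 0.011). Those of the called falls ran from -1.54 for *Ryr1* to -1.19 for *Trdn*. *Pvalb*, at -0.87, had an adjusted p of 0.0541 in limma and was not called, and *Atp2a1* was at -1.29 with an adjusted p of 0.0929. Without m866, 8 genes were called, with *Pvalb* (-1.12) and *Atp2a1* (-1.60) added, while the share of all genes called rose from 24.8% to 31.1%. With 1 mean value per PBS-only mouse, 5 were called, and *Casq2* was no longer among them (limma adjusted p = 0.0548), while 23.4% of all genes were called. Without the HRS leg of m864, *Trdn* was at -0.92 and not called.

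The contralateral PBS legs were then compared with PBS-only legs, which asks whether the PBS-injected side of an immunized mouse differed. By limma 0 of the 10 genes were called, 0 had an unadjusted p below 0.05, and 0 were called by limma-voom or without m866. Over all genes tested, 1 gene or 0.00609% was called, and 902 genes had an unadjusted p below 0.05. The most distant member was *Sln*, at 1.39 with a 95% interval from -0.38 to 3.15, and its highest contralateral value (26.9, m863) was above all PBS-only values. For *Ryr1*, the difference was -0.23 with an interval from -0.99 to 0.52, and it was -0.08 without the contralateral leg of m866. That of *Sln* was 0.91 without the contralateral leg of m863. For *Atp2a1*, the interval ran from -1.31 to 1.41, and the test does not show that the legs were alike.

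**Figure D2:**
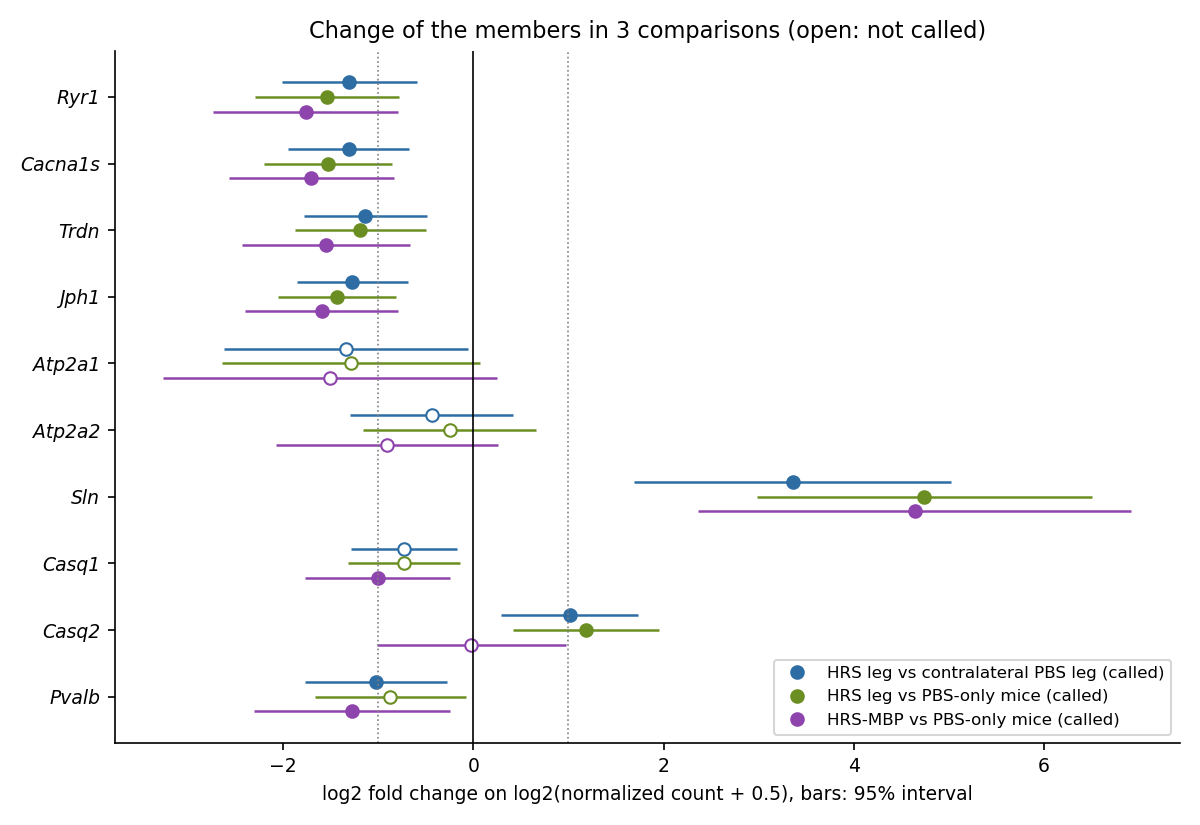
Log2 fold changes of the 10 genes (points) with 95% intervals (bars) in 3 comparisons; filled points are called, open points are not, and dotted lines mark the fold threshold of 1. *Sln* lies at 3.36, 4.74 and 4.64, and the 4 release genes lie between -1.76 and -1.13 in all 3 comparisons.

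In the HRS-MBP libraries, the release genes lay within the range of the HRS legs of m862 to m865. *Ryr1* had 1160 and 1125 normalized counts in m860 and m861, *Atp2a1* had 14148 and 14785, and *Casq1* had 1873 and 1821. *Sln* had 92.3 and 51.9, above all 9 PBS legs. Against PBS-only legs, 7 of the 10 genes were called, *Sln* higher and *Ryr1*, *Cacna1s*, *Trdn*, *Jph1*, *Casq1* and *Pvalb* lower, where 20.7% of all genes were called higher and 10.2% lower. In the same comparison, 10 of 10 leukocyte markers (median 4.49, log2 scale) and 2 of 8 regenerating fibre markers were called higher, and 9 of 15 muscle reference genes and 2 of 4 nerve and Schwann cell markers were called lower. The mitochondrial share was 5.94% and 6.98% in HRS-MBP libraries against 11.3% to 13.1% in PBS-only legs, and the part of these in the result was not tested. On the log2 scale the change was 4.64 ± 1.07 for *Sln* (SE, limma adjusted p = 0.00241), -1.76 ± 0.46 for *Ryr1* (SE, limma adjusted p = 0.00491) and -1.01 ± 0.36 for *Casq1* (SE, limma adjusted p = 0.0258). With 1 mean value per PBS-only mouse, 5 were called, and *Casq1* (limma adjusted p = 0.0778) and *Pvalb* (limma adjusted p = 0.0943) were lost. Of all genes, 28.8% were called in that fit. Without the m860 library, 4 were called against 26.2% of all genes, and *Trdn* (-1.42, limma adjusted p = 0.058), *Casq1* and *Pvalb* were lost. Without m861, *Casq1* and *Pvalb* were lost and 28.0% of all genes were called.

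*Casq2* had the largest difference between HRS-MBP and HRS legs with all libraries in the fit. Its HRS-MBP values were 68.8 and 29.4 normalized counts, which straddled the PBS-only range of 33.6 to 64.6. The log2 difference of HRS-MBP from HRS legs was -1.20 with a 95% interval from -2.16 to -0.25, and its adjusted p was 0.249 in limma. The difference was -0.60 without m861 and -1.81 without m860. Between HRS-MBP and HRS legs, 0 of the 10 genes were called by limma, 0 by limma-voom and 0 without the HRS leg of m866. *Casq2* was the only one with an unadjusted p below 0.05 in limma, a level that 2371 of all 16414 genes passed. Over all genes tested, 0.463% were called, and this share rested on single libraries, being 3.59% without the HRS leg of m864, 1.1% without that of m866, 0.822% without m860 and 0.152% without m861. For *Sln*, the difference was -0.10 with an interval from -2.30 to 2.10, so a difference of severalfold in either direction remained possible. The MBP fusion differs from HRS in protein, concentration and mice at once, and these cannot be told apart.

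Paired by mouse, *Sln* was higher in the HRS leg of 5 of 5 mice. The log2 differences of HRS leg minus contralateral leg were 5.66, 2.26, 3.75 and 4.91 in m862 to m865 and 0.20 in m866. *Casq2* was higher in 4 of 5 mice (1.85, 0.90, -0.11, 1.80 and 0.61 in m862 to m866). *Ryr1*, *Cacna1s*, *Trdn*, *Jph1*, *Atp2a1*, *Casq1* and *Pvalb* were each lower in 4 of 5 mice, with m866 the exception every time. The largest falls of these 7 genes were all in m864, from -2.49 for *Ryr1* to -1.41 for *Casq1*. *Atp2a2* was higher in 2 mice and lower in 3. With 5 mice, a 2-sided exact sign-flip test cannot reach 0.05. The p of *Sln* was the smallest that test allows.

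A fit of these 10 libraries with a term for each mouse called 4 of the 10 genes, *Sln* (limma adjusted p = 0.0188) and *Casq2* (0.0361) higher and *Cacna1s* (0.0392) and *Jph1* (0.0329) lower. The adjusted p rose to 0.0602 for *Ryr1*, 0.0547 for *Trdn* and 0.191 for *Pvalb*, at the same log2 fold changes. Of all genes, 22.2% were called in that fit, against 23.2% without the mouse term.

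The falls were then set against other fibre genes of each library, by subtracting the median log2 level of the 15 muscle reference genes. This median does not separate fewer fibres from less RNA of these genes in each fibre. On this relative scale, the differences of the release genes between HRS and contralateral legs were small. The difference was -0.13 for *Ryr1*, -0.13 for *Cacna1s*, 0.05 for *Trdn*, -0.09 for *Jph1* and -0.16 for *Atp2a1*, with unadjusted p between 0.135 and 0.675 (exact permutation test, 2-sided, 5 against 5). *Atp2a1* was lower in 5 of 5 mice, by 0.01 in m866 and by more in the others. Single libraries moved these small differences: without the HRS leg of m864, that of *Ryr1* was -0.04, of *Cacna1s* -0.07, of *Jph1* -0.05, of *Atp2a1* -0.07 and of *Trdn* 0.12. *Atp2a1* passed an unadjusted 0.05 without the contralateral leg of m864 (exact permutation p = 0.0397) and *Jph1* without the HRS leg of m865 (exact permutation p = 0.0476). For *Pvalb*, it was 0.16 with an unadjusted p of 0.23 in the same exact test. The 95% intervals of the fit on this scale ran from -0.34 to 0.08 for *Ryr1* and from -0.11 to 0.43 for *Pvalb*, well short of their falls as deposited.

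With the mean of the reference list in place of its median, 7 of the 10 genes passed an unadjusted 0.05, *Ryr1* among them at -0.17 (exact permutation test, 5 against 5, p = 0.0238). The share of all genes passing this exact test was not computed. In the limma fit centred on the median, 14322 of 16414 genes had an unadjusted p below 0.05. The differences themselves moved little, from -0.13 to -0.17 for *Ryr1* and *Cacna1s*.

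Compared with PBS-only mice, *Ryr1* and *Cacna1s* were lower relative to the reference genes. In the limma fit on centred values, HRS legs had -0.31 for *Ryr1* (95% interval -0.54 to -0.09, adjusted p = 0.0102) and -0.31 for *Cacna1s* (adjusted p = 0.00957), both under the fold threshold. HRS-MBP libraries had -0.39 for *Ryr1* (limma adjusted p = 0.0162) and -0.33 for *Cacna1s* (limma adjusted p = 0.0301). *Trdn* and *Jph1* had adjusted p above 0.05 in both of these comparisons. In HRS legs, *Casq1* (0.50, limma adjusted p = 0.00151), *Pvalb* (0.35, 0.0232) and *Atp2a2* (0.97, 0.0288) were higher than in PBS-only legs on this scale, also under the fold threshold. On it, 69% of all genes were called between HRS and PBS-only legs.

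Relative to the reference genes, *Sln*, *Casq2* and *Casq1* were higher in HRS legs than in contralateral legs. The relative difference was 4.54 for *Sln*, 2.19 for *Casq2* and 0.45 for *Casq1*, each with an unadjusted p of 0.0238 (exact permutation test, 2-sided, 5 against 5). *Casq2* was higher in 5 of 5 mice and *Sln* and *Casq1* in 4 of 5, m866 again being the exception. *Casq1* thus had a negative fold change as deposited and a positive one relative to the other fibre genes. In a limma fit over all genes on the centred values, *Sln* and *Casq2* were called (adjusted p = 0.00056 and 0.000536), and *Casq1* had an adjusted p of 0.00199 under the fold threshold. The background on that scale was 64.2% of genes called, and the median of all genes moved to 1.26 on the log2 scale. *Casq2* lay above that median and *Casq1* below it.

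**Figure D3:**
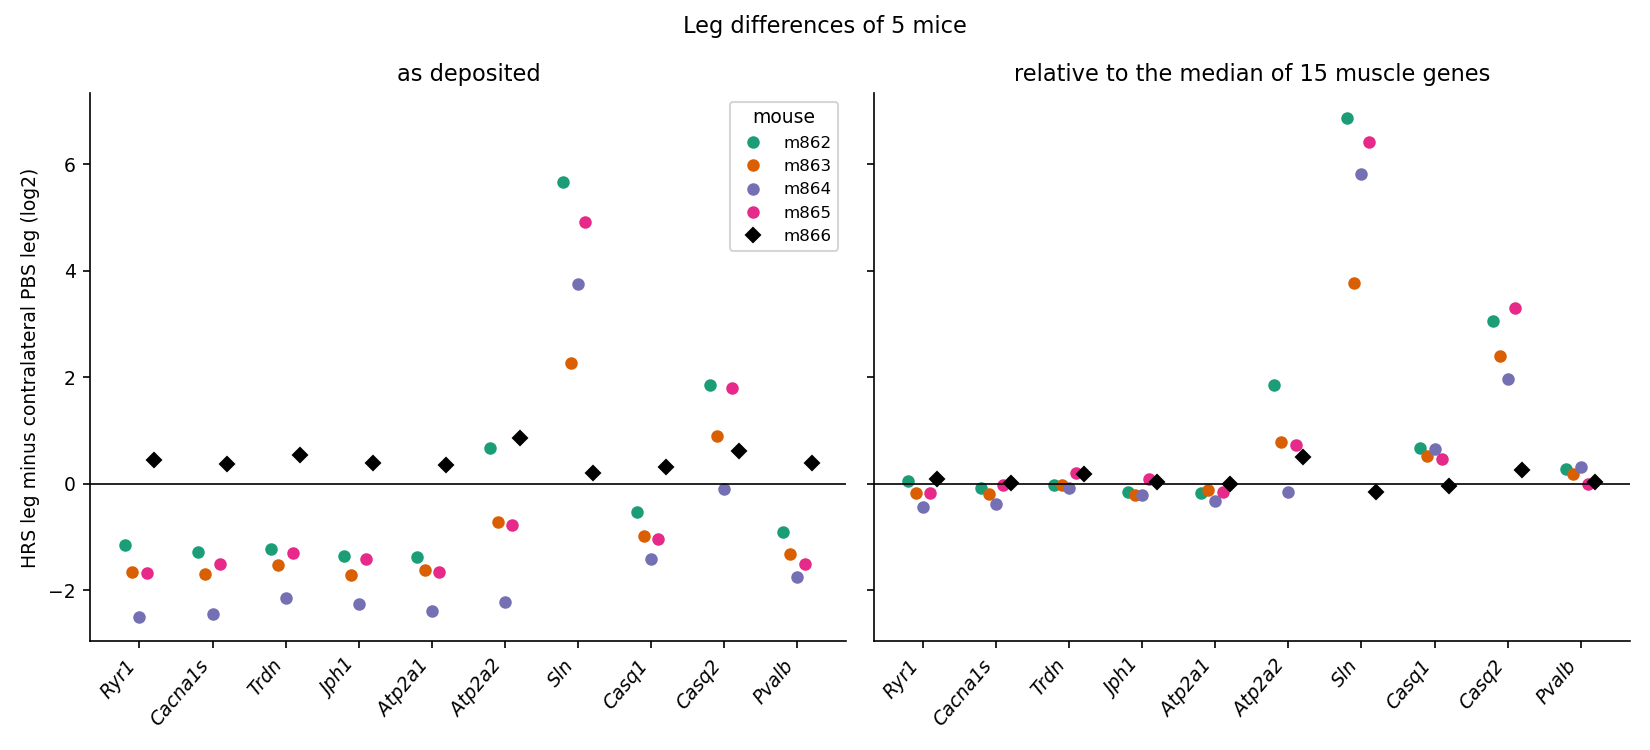
Difference between the HRS leg and the contralateral PBS leg of each mouse (log2), as deposited on the left and relative to the median of 15 muscle reference genes on the right; each point is 1 mouse and the black diamond is m866. *Ryr1* in m864 moves from -2.49 on the left to -0.43 on the right, *Casq1* moves from below 0 to above 0 in m862 to m865, and *Sln* and *Casq2* are above 0 in those mice on the right.

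A ratio of 2 genes within a library does not depend on the scaling of the library. The ratio of *Casq2* to *Casq1* was 4.79%, 5.78%, 5.94%, 8.92% and 1.47% in the HRS legs of m862 to m866. The contralateral legs had 0.912%, 1.56%, 2.41%, 1.24% and 1.19%, and the PBS-only legs lay between 0.964% and 1.65%. The first 4 HRS legs were above all 9 PBS legs. The log2 ratio was higher by 1.75 in HRS legs, in 5 of 5 mice, with an unadjusted p of 0.0238 that became 0.0714 after adjustment over 3 ratios (exact permutation test, 2-sided, 5 against 5). Without the HRS leg of m866, the difference was 2.16 and passed 0.05 after adjustment, at 0.0238. Without both legs of m866, it was 2.11 with an adjusted p of 0.0857 (exact permutation test, 4 against 4, in which the smallest unadjusted p is 0.0286). The HRS-MBP libraries had 3.67% in m860 and 1.61% in m861.

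The ratio of *Atp2a2* to *Atp2a1* had a median of 1.89% in HRS legs (range 0.999% to 2.40%) and of 1.02% in contralateral legs (range 0.252% to 2.14%). It was higher in the HRS leg of 5 of 5 mice, by 0.90 on the log2 scale, but the groups overlapped (exact permutation test, 2-sided, 5 against 5, p = 0.175). The difference was 0.47 without the contralateral leg of m862 and 1.24 without that of m864. The ratio of *Tnnc1* to *Tnnc2*, the slow and fast forms of the calcium sensor troponin C, had a median of 1.32% in HRS legs and 1.79% in contralateral legs (exact permutation test, 2-sided, 5 against 5, p = 0.651). Its log2 difference was -0.26, and it turned to 0.11 without the contralateral leg of m864. The ratio of *Sln* to *Atp2a1*, inhibitor to pump, was chosen after its values were seen. It had a median of 0.904% in HRS legs and 0.0155% in contralateral legs, and was higher in 4 of 5 mice.

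**Figure D4:**
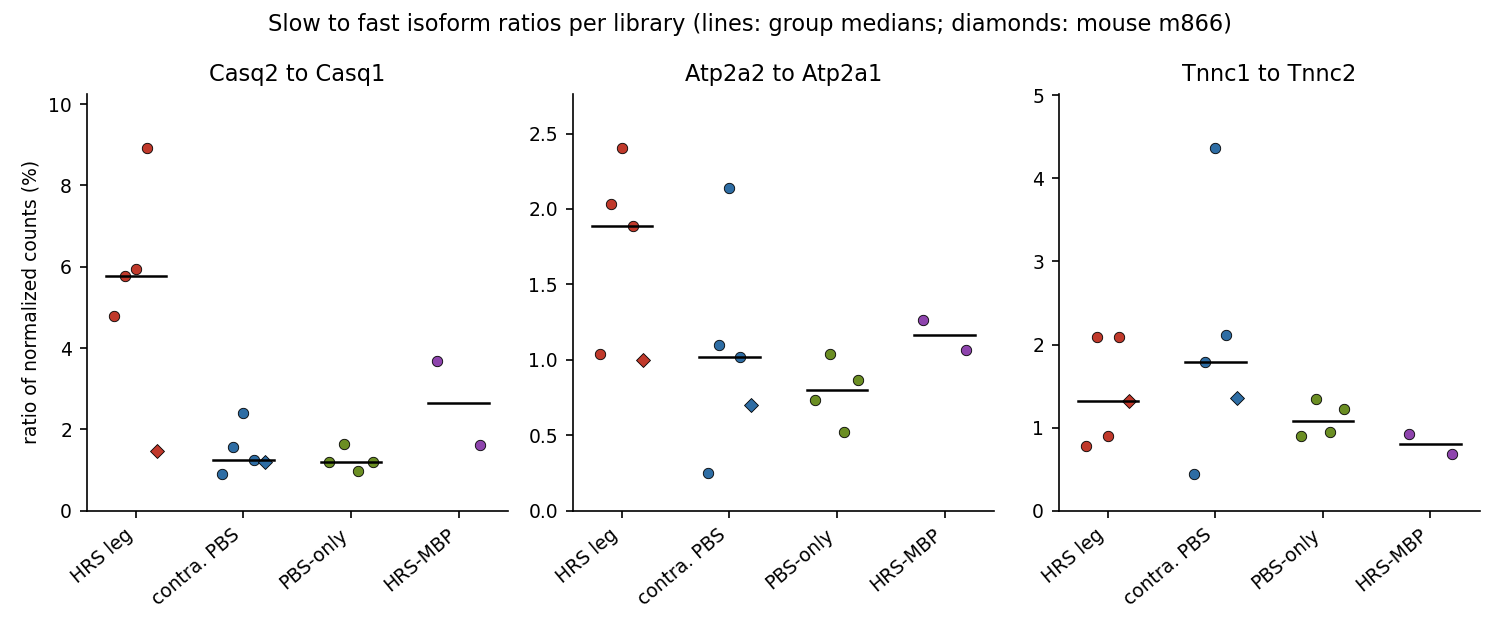
Ratio of normalized counts of slow or cardiac to fast forms in each library, in percent, for calsequestrin, the SERCA pump and troponin C; points are libraries, lines are group medians and diamonds are m866. The *Casq2* to *Casq1* median is 5.78% in HRS legs and 1.24% in contralateral legs, while the troponin C medians are 1.32% and 1.79%.

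Slow-fibre markers did not rise with *Casq2*. Of 8 slow-fibre markers, 6 were called lower between HRS and contralateral legs, among them *Myh7*, the slow myosin heavy chain (log2 fold change -2.76 ± 0.85, SE, limma adjusted p = 0.0111), and 0 were called higher. Of 8 markers of regenerating fibres and satellite cells, 6 were called higher. *Myh3*, the embryonic myosin heavy chain, had 366, 350, 132, 557 and 3.94 normalized counts in the HRS legs of m862 to m866 and 5.57 to 35.9 in contralateral legs. It was high in the 4 HRS legs in which *Sln* was high and low in m866. Of 6 cardiac markers, *Tnnt2*, which developing muscle also uses, was called higher (3.08) and *Myh6* lower (-1.78), *Tnni3* was not called (-0.26), *Nppa* and *Myl7* were too low to test, and *Nppb* is not among the genes of the table. The part of regenerating fibres in the rises of *Sln* and *Casq2* was not tested.

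Across the 16 libraries, *Sln* had a correlation of 0.87 with *Myh3*, and *Casq2* of 0.76, while *Atp2a2* had 0.72 with *Myh7* (Pearson's r of log2 levels, n = 16 libraries). These libraries share the contrast between groups and, in part, mice, so the values are descriptions. The 7 genes that fell in m862 to m865 had pairwise r between 0.935 and 0.996.

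**Figure D5:**
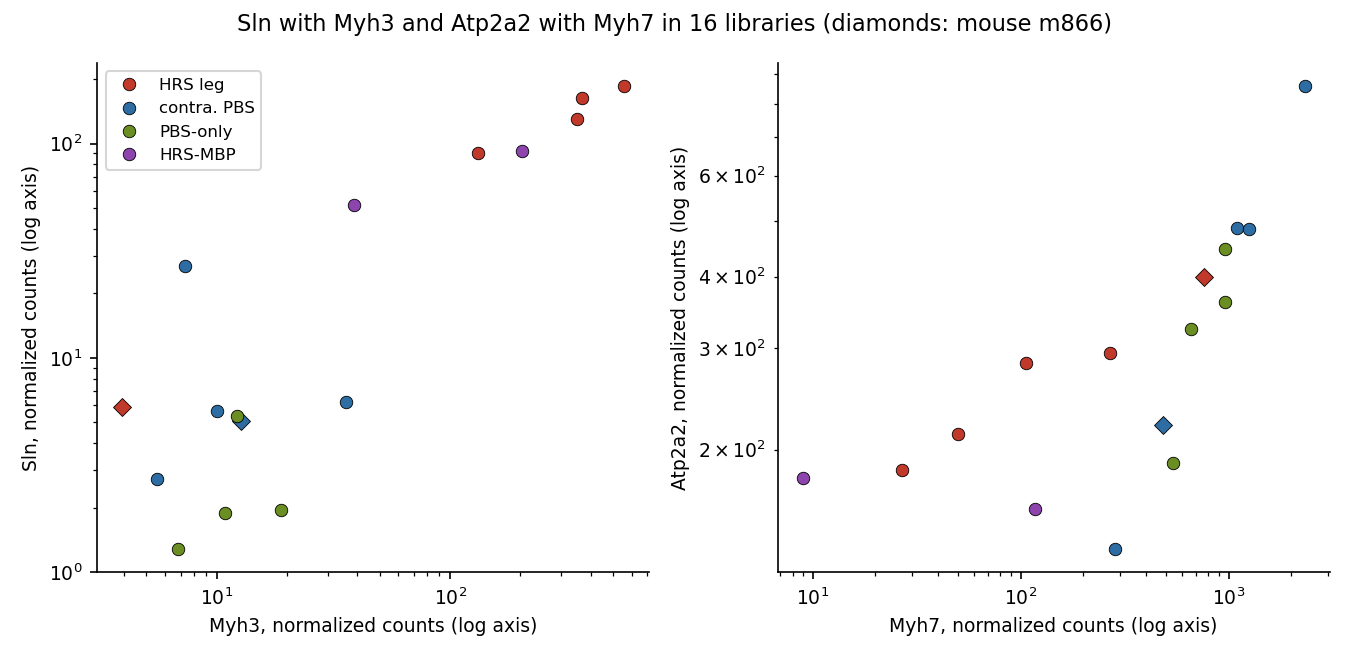
*Sln* against *Myh3* (left) and *Atp2a2* against *Myh7* (right) in normalized counts on log axes, 1 point per library, coloured by group with m866 as diamonds. The HRS legs with 90.1 to 186 normalized counts of *Sln* have 132 to 557 of *Myh3*, and the HRS leg of m866 has 3.94.

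The genes most like each member in pattern were taken as the 3 tested genes with the highest r over the 16 libraries. For *Ryr1*, they included *Sptb* (0.997) and *Cacna1s* (0.996), and for *Cacna1s* they included *Ryr1* (0.996) and *Sptb* (0.995). *Trdn* was most like *Sucla2* (0.994), *Tmod1* (0.994) and *Tcea3* (0.993), *Jph1* most like *Zfyve9*, *Oip5os1* and *Tarsl2* (0.996 each), and *Atp2a1* most like *Pde4dip* (0.998), *Pdk2* (0.997) and *Pfkm* (0.997). *Pvalb* was most like *Mylpf* (0.992), *Tnni2* (0.990) and *Pgam2* (0.990), and *Casq1* most like *Hrc* (0.987), *Cacnb1* (0.987) and *Myoz3* (0.986). The genes that did not follow these had other neighbours. *Sln* was most like *Ttc9* (0.978), *Cdkn1a* (0.969) and *Rrad* (0.966), *Casq2* most like *Enah* (0.936), *Tgfb3* (0.931) and *Tead4* (0.927), and *Atp2a2* most like *Xpo4* (0.914), *Tnnt1* (0.886) and *Actn2* (0.880).

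Of 17 other genes of the release unit, 6 were called lower and 2 higher between HRS and contralateral legs, and their median was -0.57 on the log2 scale. The largest fall was that of *Jsrp1*, which binds the voltage sensor (-1.18 ± 0.26, SE, limma adjusted p = 0.00188), and *Jph2* (-1.11), *Tmem38a* (-1.10), *Stac3* (-1.04), *Srl* (-1.04) and *Hrc* (-1.01) were the others. *Stac3* is an adaptor that the voltage sensor needs, and *Srl* encodes sarcalumenin, a calcium-binding protein of the store. The 2 rises were of genes with low levels. *Fkbp1b*, a partner of ryanodine receptors, had means of 2.50 and 0.365 normalized counts (log2 fold change 1.63, limma adjusted p = 0.00186), and *Ryr3*, a second ryanodine receptor of developing muscle, had 1.24 and 0.279 (1.09, limma adjusted p = 0.00902). The mean of *Fkbp1b* was 0.394 in PBS-only legs, so both of its PBS groups lay under the filter of 0.5. It was tested only through the groups in which it was high, and its call is a description. The contralateral mean of *Ryr3* was under the filter as well. Against PBS-only mice, 5 were called lower and 1, *Fkbp1b*, higher. *Fkbp1b* (1.67) had the largest change of the list there, and *Stac3* (-1.13), *Jph2* (-1.13) and *Srl* (-1.12) were called again. *Jsrp1* and *Ryr3* were not called in that comparison.

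Of 3 tested genes that regulate or resemble SERCA, only *Mrln* was called between HRS and contralateral legs. *Mrln* encodes myoregulin, a micropeptide inhibitor of the fast-fibre pump, and it fell, unlike *Sln*. Its mean was 12.4 normalized counts in HRS legs and 30.0 in contralateral legs (log2 fold change -1.36 ± 0.30, SE, limma adjusted p = 0.00163), and against PBS-only mice it was -1.29. *Pln*, phospholamban, was low throughout, at means of 1.45 and 2.36 (-0.60, limma adjusted p = 0.0379, under the fold threshold).

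Of 14 tested genes of store-operated entry and membrane transport, 1 was called higher and 2 lower between the legs. *Orai2*, a calcium entry channel subunit, rose from 1.72 to 16.8 normalized counts (2.83 ± 0.32, SE, limma adjusted p = 8.62e-06), and *Slc8a3*, a sodium-calcium exchanger of muscle, fell (-1.18). *Atp2b3*, a plasma membrane pump, fell as well (-1.004). *Orai1*, the main entry channel of muscle, was at -0.08 (limma adjusted p = 0.525), and *Stim1*, the sensor of store calcium that opens it, was at -0.73 (limma adjusted p = 0.00434, under the fold threshold). Against PBS-only mice, *Orai2* was at 2.81, *Slc8a3* at -1.52, *Stim1* at -0.78 and *Orai1* at -0.13.

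Of 15 cytosolic calcium sensors and signalling genes, 5 were called lower and 0 higher, and their median was -0.78 on the log2 scale. The largest was *Mylk2*, the skeletal muscle myosin light chain kinase (-2.13 ± 0.44, SE, limma adjusted p = 0.00114), with means of 341 and 1116 normalized counts. *Camk2a* (-1.42), *Tnnc1* (-1.37), *Tnnc2* (-1.11) and *Camk2g* (-1.0004) were the others. Against PBS-only mice, 5 were called lower, led by *Mylk2* at -1.95.

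Of 7 genes of the mitochondrial calcium uniporter, *Mcub* alone was called between HRS and contralateral legs. *Mcub*, a subunit that reduces uptake through the channel, rose from 1.54 to 10.4 normalized counts (2.36 ± 0.23, SE, limma adjusted p = 2.51e-06), and its HRS leg of m866, at 5.80, was also above all contralateral legs. The pore gene *Mcu* had means of 42.0 and 41.8 (0.01, limma adjusted p = 0.963). Of 5 genes of endoplasmic reticulum calcium in cells outside fibres, 0 were called between the legs at the fold threshold although 4 had an adjusted p below 0.05, and against PBS-only mice *Calr*, the calcium-binding chaperone calreticulin, was called at 1.002. *Orai2* and *Mcub* moved in the direction of the leukocyte markers, whose sums are given above, and the part of other cells in these rises was not tested.

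Other annotated genes lie on the members, and the strand used in counting is not stated. *Rabep2*, a protein-coding gene on the opposite strand, overlaps *Atp2a1* and had a mean of 817 normalized counts. Antisense genes overlap *Cacna1s* (*Gm37759*, mean 49.0), *Casq1* (*Gm17224*, mean 35.5) and *Ryr1* (*Gm26604*, mean 6.05), and reads of such pairs can be mixed.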

How the data were processed

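RNA of mouse hamstring muscle was sequenced after poly(A) selection with a directional kit, on 3 platforms whose split over libraries is not given. The table deposited by the authors holds a signal, normalized counts per gene, whose scaling and counting are not stated; STAR 2.7.8a and limma appear in the submitters' processing notes without a role. Of low values, 75.4% to 77.7% per library were whole multiples of 1 step (tolerance 0.02), too few to recover reads, so a count test was not used. Of 26382 genes, 25652 matched GENCODE M21 by symbol and chromosome, and 99.4% of these had the same start, so coordinates are those of GRCm38.

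Values were analysed as log2(normalized count + 0.5) with limma 3.58.1 (R 4.3.3, mean trend) in 1 fit of 4 groups over 16414 genes with a mean of at least 0.5. Calls needed a Benjamini-Hochberg adjusted p below 0.05 and an absolute log2 fold change above 1. Exact tests went through all relabellings or sign flips with numpy 2.4.6. The permutation test was checked against scipy 1.17.1, and the code was tested on simulated data. Legs were paired by the mouse label, which marks 1 animal. The deviations of paired legs correlated at 0.119, 0.163, 0.0972, -0.0256 and -0.366 in m862 to m866. Relative-to-muscle tests are given with unadjusted p. Depth limits the precision of low genes such as *Sln* in PBS legs.

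Besides the 10 genes, those named are the largest change of each calcium list in either HRS comparison, *Pln*, *Mrln*, *Stac3*, *Jph2*, *Srl*, *Stim1*, *Orai1*, *Mcu* and *Mcub*, and the 3 genes most correlated with each member. One gene among the latter is not reported here. Other genes were named after their values were seen. The members and lists were chosen with earlier results of these data known. Alternatives covered the pseudocount, filter, scaling, model, mouse term and each library left out; leaving out both legs of m866 and the *Sln* to *Atp2a1* ratio were added after seeing the data.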

Additional observations from a re-analysis of the deposited data

Results flagged for a closer look

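In 7 of 51 groups of values examined, 1 library lay far from the rest by Dixon's criterion, which chance alone meets in about 1 of 20 groups. In the contralateral leg of m866, *Ryr1* had 2164 normalized counts (others 3376 to 3910), *Cacna1s* 877 (others 1341 to 1540.0) and *Jph1* 265 (others 388 to 448). The median log2 level of the 15 muscle reference genes was also lowest there, at 10.68 against 11.23 to 11.36, so the 3 genes moved with the other fibre genes of that library. In the HRS leg of m866, *Sln* had 5.92 normalized counts (others 90.1 to 186), and its log2 ratio to *Atp2a1* was -12.72 (others -6.98 to -6.33). Among PBS-only legs, the right leg of m868, the shallowest library, had a muscle reference median of 10.87 against 11.28 to 11.33. The causes were not tested.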

How the results depend on the processing

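Of the limma results of single genes under the alternatives, 955 kept direction and side of the threshold, 63 lost the call, 17 gained one and 45 turned direction. Of the permutation tests relative to muscle genes, 114 kept their side of 0.05 and 6 passed it. Between HRS and contralateral legs, 7 genes called became 3 with quantile normalization, 2 with centring on muscle reference genes, 2 with limma-voom and 4 with mouse as a replicate block. Of all genes, 22.7%, 64.2%, 27.8% and 22.2% were called in these fits, against 23.2% in the main fit. These scalings moved the median of all genes from 0.08 to -0.16, 1.26 and 0.48, and the share of all calls that were higher from 73.0% to 56.2%, 99.8% and 94.5%. With centring, 2 genes were called against PBS-only mice, where 69% of all genes were called. Between HRS-MBP and PBS-only libraries, 2 were called, *Sln* and *Casq2*, against 68.4% of all genes. Of this pair, *Casq2* was not called as deposited. Using the mean of the reference list, 7 genes rather than 3 passed an unadjusted 0.05 in the exact test on the relative scale. By limma on values centred on the median, 14322 of 16414 genes had an unadjusted p below 0.05. The causes were not tested.

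Centring turned *Trdn* (0.0455), *Atp2a2* (0.74), *Casq1* (0.45) and *Pvalb* (0.16) positive against contralateral legs, and *Trdn* (0.0364), *Atp2a2* (0.97), *Casq1* (0.50) and *Pvalb* (0.35) against PBS-only mice. For HRS-MBP against PBS-only mice it gave *Atp2a2* 0.46, *Casq1* 0.37, *Casq2* 1.35 and *Pvalb* 0.10, and against HRS legs *Sln* 0.0504. Quantile normalization gave *Atp2a2* 0.0346 and *Pvalb* 0.0734 against PBS-only mice, *Casq1* -0.0462 for contralateral against PBS-only legs and *Atp2a1* 0.0246 for HRS-MBP against HRS legs. By limma-voom, *Atp2a2* was 0.15 against PBS-only mice, *Casq2* 0.44 between HRS-MBP and PBS-only libraries and *Casq1* -0.0227 for contralateral against PBS-only legs. In that last comparison, median-of-ratios factors gave *Atp2a1* -0.0078 and *Casq1* -0.0599, TMM factors *Casq1* -0.0517, and leaving out m866 *Trdn* 0.0779.

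Leaving out 1 library gave 5 to 8 genes called against contralateral legs, where 18.5% to 29.6% of all genes were called. Against PBS-only mice it gave 5 to 8, with 20.6% to 31.1% of all genes. Between HRS-MBP and PBS-only libraries, leaving out 1 PBS-only leg gave 5 to 7, with 29.1% to 31% of all genes. The log2 ratio of *Casq2* to *Casq1* differed by 1.51 to 2.16 (2.16 without the HRS leg of m866), that of *Atp2a2* to *Atp2a1* by 0.47 to 1.24, and that of *Tnnc1* to *Tnnc2* by -0.72 to 0.11 (0.11 without the contralateral leg of m864). Contralateral against PBS-only legs, *Ryr1* ran from -0.32 to -0.08, *Sln* from 0.91 to 1.74, *Trdn* from -0.14 to 0.0779, *Atp2a1* from -0.0253 to 0.16, *Atp2a2* from -0.13 to 0.54, *Casq1* from -0.0584 to 0.10 and *Casq2* from -0.0045 to 0.34. For HRS-MBP, *Casq2* ran from -0.63 to 0.59 against PBS-only mice, and against HRS legs *Casq2* from -1.81 to -0.60, *Ryr1* from -0.51 to 0.0636, *Cacna1s* from -0.43 to 0.11, *Jph1* from -0.41 to 0.12, *Atp2a1* from -0.51 to 0.0905 and *Sln* from -0.98 to 0.31.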
